A study of Mus musculus with 14 samples.

Results

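Scheduled exercise was compared with its absence in the suprachiasmatic nucleus (SCN) of Vipr2-/- mice, in 6 of the 14 libraries of the series. The 6 libraries were chosen by their labels, 3 from mice under scheduled voluntary exercise (SVE) and 3 from mice without it (nSVE), all culled at time 14. Genes were described across the 18175 of 55401 listed genes with a normalized read count of 10 or more in at least 3 libraries of the series. All 6 libraries came from mice on a C57BL/6 background that lack the VPAC2 receptor, most of the study's animals being adult males over 8 weeks of age. Every mouse first lived through 14 days of light and dark and then in constant darkness. Mice of the SVE group ran free for 14 days, after which their wheel was open for 6 h in each 24 h. They were culled 2 h after the wheel opened, at schedule time 14, once drinking had taken on a daily rhythm, which takes such mice 6 to 9 days. Mice of the nSVE group ran free throughout and were culled at circadian time 14. Both groups were selected by behaviour, since mice that failed to entrain to SVE and nSVE mice without a rhythm were left out by the authors. The remaining 8 libraries, 4 SVE and 4 nSVE from wild-type Vipr2+/+ mice, entered the model to share its estimate of spread and to test whether the response differed between genotypes. The series text puts the wild-type mice under SVE at the same schedule time, 14, but at circadian time 24. Entrainment to SVE is given as 35 to 40 days for wild-type mice, against the 6 to 9 days above. Total RNA of laser-cut SCN was sequenced, so that fewer cells of a type and less RNA per cell cannot be told apart. No label says whether the libraries of a group are separate animals, and p-values measure the spread between these libraries.

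The SCN of the hypothalamus is the master circadian pacemaker of mammals. Its neurons each carry a clock in which CLOCK and BMAL1 switch on the Period and Cryptochrome genes, whose proteins then shut CLOCK and BMAL1 off, and they are held in step largely by the neuropeptide VIP acting on VPAC2. Without VPAC2 the cells drift apart and behaviour in darkness is weakly rhythmic or arrhythmic. Timed access to a running wheel is a cue other than light to which such mice can align their behaviour.

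The Vipr2 transcript itself gave 90.9, 244 and 193 normalized read counts in the SVE libraries, against 173, 144 and 218 in the nSVE libraries. All 6 lay far below the wild-type libraries, which had 8736, 6792, 10031 and 7210.3 under SVE and 6247, 6796, 7042 and 6538 under nSVE. Between the Vipr2-/- groups its log2 fold change was -0.11 ± 0.273 (SE, limma adjusted p = 0.883). Library totals ran from 17709080 to 32563966 reads in the SVE group and from 19706429 to 33349291 in the nSVE group. Of the genes tested, 10.5%, 3.99% and 16.3% stood at 0 in SVE libraries 1 to 3, against 11.2%, 11.8% and 20.7% in nSVE libraries 1 to 3. Reads of CT010467.1, a gene related to rRNA, made up 3.72%, 2.68% and 3.27% of SVE libraries 1 to 3, against 11.4%, 19.4% and 3.86% of nSVE libraries 1 to 3. The groups did not overlap in this share (exact two-sided permutation p = 0.1, the smallest that 3 against 3 libraries allow). Marker genes of SCN neurons were read in all 6 libraries, Six6, Lhx1, Rorb and Prokr2 among them, and the 8 markers summed to 30546, 35444 and 30239.6 under SVE, against 33013, 29855 and 33339 under nSVE.

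Scheduled exercise was accompanied by few changes that passed the test. With a limma model on log2(value + 1) and Benjamini-Hochberg adjustment over all genes tested, 21 genes passed an adjusted p of 0.05, or 0.116%, with 18 higher (0.099%) and 3 lower (0.0165%) under SVE. Genes read in all 6 libraries numbered 13078, and 6 of these passed (0.0459%), 3 higher and 3 lower. Another 827 genes were at 0 in all 3 nSVE libraries, and 12 of them were called higher. Of 204 genes at 0 in all 3 SVE libraries none was called, with 25 lower at an unadjusted p under 0.05. The other 3 calls fell among 3931 genes at 0 in some libraries but in no whole group, and 135 genes were at 0 in both groups. An unadjusted p under 0.05 was reached by 2516 genes, 13.8% of those tested, 8.16% higher and 5.68% lower. Among genes read in all 6 libraries these shares were 7.07% higher and 6.6% lower. Groups did not overlap in 1815 genes, or 9.99% (5.28% higher and 4.7% lower). Among the genes read in all 6 libraries the share was 11.5% (5.56% higher and 5.96% lower). Full separation of 3 against 3 libraries has an exact two-sided permutation p of 0.1, so about this share separates without any difference. Lack of overlap alone therefore does not mark a gene as changed, here or below. Across genes read in all 6 libraries the median log2 fold change was 0.00, with 50.4% of them higher. The count of calls depended on the method. It was 394 genes by DESeq2 (2.17%), 6 by edgeR's quasi-likelihood test (0.033%) and 0 in a limma fit of the 6 libraries alone. In that fit 866 of the 18175 genes tested had an unadjusted p under 0.05. The count was 2516 where all 14 libraries set the spread. Leaving out SVE library 1 left 6 calls, and leaving out SVE library 2, nSVE library 1 or nSVE library 2 gave 72, 177 or 112. Without the sparsest library of each group (SVE 3 and nSVE 3, an alternative added after seeing the data) 39 genes passed. The balance of directions was not stable either, with 248 higher and 146 lower by DESeq2, and 22 higher and 50 lower without SVE library 2.

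**Figure D1:**
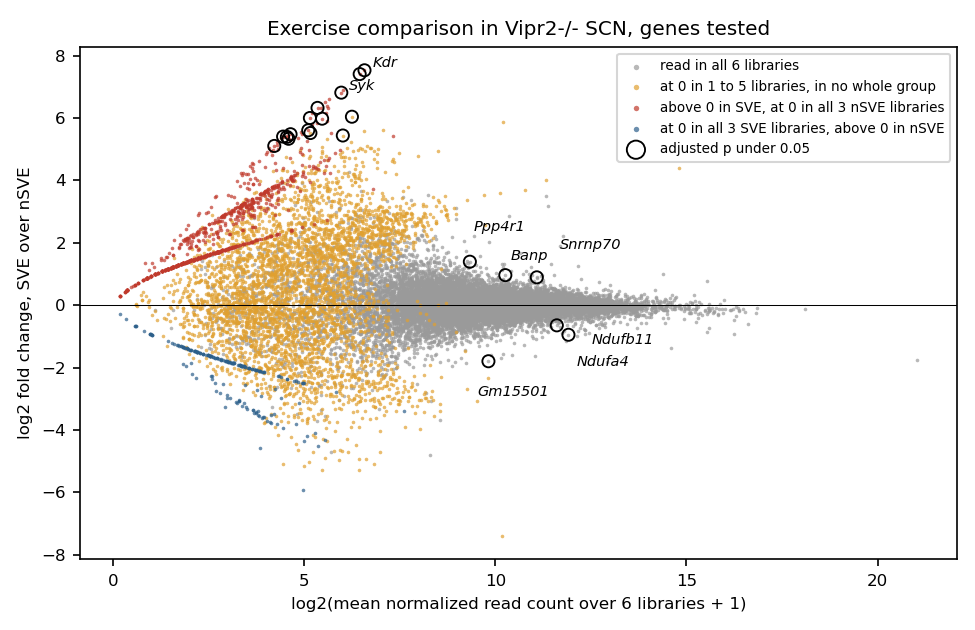
Log2 fold change of SVE over nSVE in Vipr2-/- SCN (vertical axis) against log2 of the mean normalized read count over the 6 libraries plus 1 (horizontal axis), 1 point per gene tested, coloured by where the gene was read; open circles mark the 21 genes with an adjusted p under 0.05. Among the called genes, those read in all 6 libraries lie between -1.80 and 1.39, and the larger fold changes belong to genes with libraries at 0.

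Among genes read in every library, 3 rose under SVE. Banp, a nuclear protein that binds the nuclear matrix and CpG-rich promoters, had 1361, 1769 and 1747 normalized read counts in SVE libraries, against 882, 755 and 850.4 in nSVE libraries. Every SVE library stood well above every nSVE library, and the means were 1626 ± 229.5 and 829 ± 66.1 (SD, n = 3 each), or 0.96 ± 0.142 as a log2 fold change (SE, adjusted p = 0.0124). Snrnp70, the U1-70K protein of the spliceosome, had 2798, 2931 and 2744 in SVE libraries, against 1586, 1494 and 1484 in nSVE libraries. The values were tight within each group and 1.86-fold higher under SVE on the log2(value + 1) scale (0.89 ± 0.162, adjusted p = 0.0476). Ppp4r1, a regulatory subunit of protein phosphatase 4, had 974, 633 and 1207 in SVE libraries, against 342, 437 and 273 in nSVE libraries. Its SVE values spread widely, SVE library 2 being the lowest, but did not reach the nSVE range (1.39 ± 0.255, adjusted p = 0.0476).

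The 3 genes that fell included a pair from the mitochondrial respiratory chain. Ndufa4, a small subunit first assigned to complex I and later to cytochrome c oxidase, had 3261, 2392 and 2298 normalized read counts in SVE libraries, against 5123, 5444 and 4632 in nSVE libraries. Every SVE library lay below every nSVE library, with a mean of 2650.4 ± 531 against 5066 ± 409 (SD, n = 3 each) and a log2 fold change of -0.95 ± 0.14 (adjusted p = 0.0124). Ndufb11, an accessory subunit of complex I, had 2562, 2657 and 2098 in SVE libraries, against 3843, 3502 and 4078 in nSVE libraries. All SVE values were below all nSVE values (-0.65 ± 0.114, adjusted p = 0.0476). The third, Gm15501, is annotated as a transcribed processed pseudogene and was named after its values were seen. It had 417, 699 and 197 in SVE libraries, against 1174, 1197 and 1734 in nSVE libraries (-1.80, adjusted p = 0.0476), and its reads may be shared with a parent gene. Banp and Ndufa4 passed without any 1 of the 6 libraries, with highest adjusted p of 0.0392 and 0.0402. All 6 genes lost their call with the rRNA-related share as a covariate (adjusted p = 0.13 for Banp and 0.14 for Ndufa4), with array weights (0.192 and 0.133) and in the fit of the 6 libraries alone (0.42 and 0.42). Snrnp70 lost its call in 4 of the 6 omissions (any SVE library or nSVE library 3), and Ppp4r1, Ndufb11 and Gm15501 each in 3 (SVE library 1 or 3 or nSVE library 3), the highest adjusted p being 0.13.

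**Figure D2:**
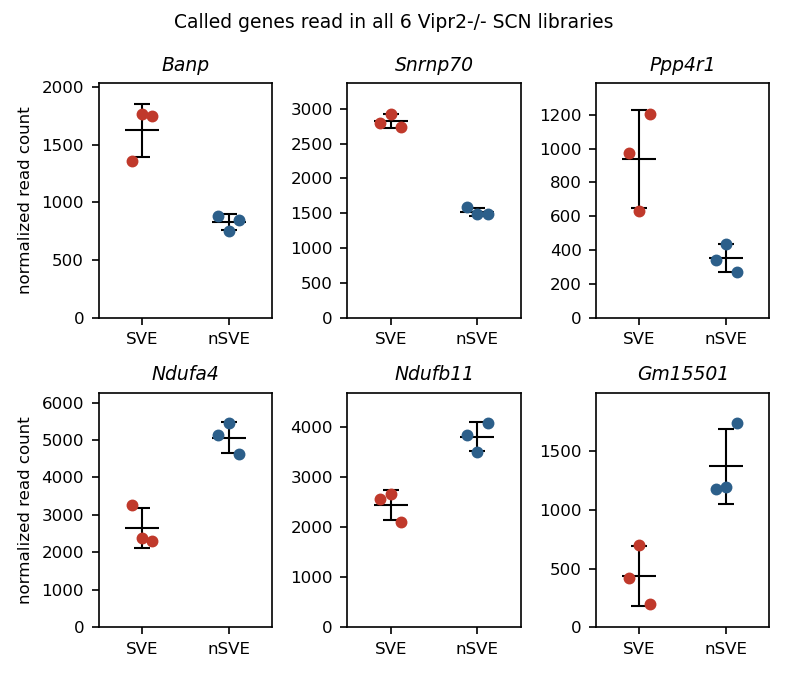
Normalized read count (vertical axes, from 0) of the 6 called genes that were read in all 6 libraries; each point is 1 library, SVE left and nSVE right, and the bar and whiskers give mean and SD of 3 libraries. In each panel the 3 points of one group lie clear of the 3 of the other.

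The region around the start of these genes is shown for the pair that fell together and for Snrnp70, as 250 bases before to 50 after the annotated start (RefSeq, build GRCm38.p6, 5′ to 3′ on the gene's strand). In capitals are matches on either strand to the E-box CACGTG, to which CLOCK and BMAL1 bind, to the cAMP response element TGACGTCA and to the consensus palindrome of NRF1, a regulator of respiratory chain genes. These 3 motifs do not overlap in the sequences shown. Of 32851 mouse promoters of the same length, 7.15% held the E-box, 1.79% the cAMP response element and 0.971% the NRF1 motif.
Ndufa4, chr6:11907401-11907700, minus strand: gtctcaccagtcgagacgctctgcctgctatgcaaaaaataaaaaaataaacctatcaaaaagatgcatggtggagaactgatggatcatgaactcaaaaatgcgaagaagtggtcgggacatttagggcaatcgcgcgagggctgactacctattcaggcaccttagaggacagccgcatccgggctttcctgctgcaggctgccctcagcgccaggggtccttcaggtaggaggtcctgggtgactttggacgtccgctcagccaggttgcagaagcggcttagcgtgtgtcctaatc
Ndufb11, chrX:20617570-20617869, minus strand: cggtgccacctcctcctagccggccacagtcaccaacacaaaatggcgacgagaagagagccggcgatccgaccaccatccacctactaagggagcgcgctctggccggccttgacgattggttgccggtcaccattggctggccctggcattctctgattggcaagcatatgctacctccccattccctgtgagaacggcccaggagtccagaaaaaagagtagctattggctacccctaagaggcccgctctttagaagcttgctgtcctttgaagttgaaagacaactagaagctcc
Snrnp70, chr7:45395693-45395992, minus strand: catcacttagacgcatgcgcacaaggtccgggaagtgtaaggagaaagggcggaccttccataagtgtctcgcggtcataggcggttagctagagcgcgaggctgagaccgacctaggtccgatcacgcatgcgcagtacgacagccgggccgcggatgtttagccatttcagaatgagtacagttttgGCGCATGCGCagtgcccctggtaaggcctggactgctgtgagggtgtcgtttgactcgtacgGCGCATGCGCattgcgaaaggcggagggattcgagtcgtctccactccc
None of the 3 motifs was found in the windows of Ndufa4 and Ndufb11, and the Snrnp70 window held the NRF1 motif at 2 places. A match is a run of letters only and was not tested for binding.

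The largest fold changes among called genes belonged to genes without a read in the nSVE libraries. Kdr, the main VEGF receptor of blood vessel endothelium, had 221, 133 and 213 normalized read counts in SVE libraries, against 0, 0 and 0 in nSVE libraries. These values stand for 280, 156 and 149 reads in SVE libraries against no read in any nSVE library. Against a floor of 3 reads over the nSVE group, Kdr was at least 148-fold higher under SVE (adjusted p = 9.94e-05). Syk, a tyrosine kinase of immune receptor signalling, had 108, 65.4 and 197 in SVE libraries, against 0, 0 and 0 in nSVE libraries, at least 96.8-fold higher (adjusted p = 0.0021). Carnmt1, which methylates carnosine, had 38.7, 59.5 and 109 in SVE libraries, against 0, 0 and 0 in nSVE libraries, at least 54.1-fold higher (adjusted p = 0.00843). Each of these 3 genes was called in all 6 single-library omissions. The pseudogene Gm1848, named after its values were seen, was called in all 6 too, with 176, 128 and 214 in SVE libraries, against 0, 0 and 0 in nSVE libraries. Kdr, Syk, Carnmt1 and Gm1848 were all read in every wild-type nSVE library. Syk had 64, 49, 80 and 35 reads there and Carnmt1 58, 71, 49 and 72, so that the Vipr2-/- nSVE libraries stand apart from wild type too. The endothelial genes Cldn5, Cdh5, Pecam1 and Flt1 were read in all 6 libraries and had log2 fold changes of 0.08, 0.04, -0.42 and -0.05, none of which passed. Of the 8 endothelial markers tested, Kdr included, 6 were higher and 2 lower. The highest among those read in all 6 libraries was at 1.28.

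Smaller counts carried the other calls of this kind. Pde5a, which breaks down cyclic GMP, had 86.2, 72.2 and 80.1 in SVE libraries, against 0, 0 and 0 in nSVE libraries (adjusted p = 0.0124), a narrow range in the SVE group. Perp, a p53 target, had 154, 88.4 and 17.2 in SVE libraries, against 0, 0 and 0 in nSVE libraries (adjusted p = 0.0274). The shieldin subunit Shld2, the guanine nucleotide exchange factor Def6 and the histone H3 lysine methyltransferase Suv39h2 were read in all SVE and no nSVE library too, at least 36.2-fold, 37.6-fold and 32.7-fold higher (adjusted p = 0.0274, 0.0454 and 0.0476). Gjc1, the gap junction protein connexin 45, had 331, 59.5 and 57.2 in SVE libraries, against 0, 3.06 and 0 in nSVE libraries (log2 fold change 6.04, adjusted p = 0.0274). SVE library 1 was far above the other two. Klhl4, of the kelch-like family, had 168, 82.4 and 112 in SVE libraries, against 0, 18.4 and 0 in nSVE libraries (5.44, adjusted p = 0.0476). The predicted genes Gm14419, Gm28800 and Gm29683, at 0 in all nSVE libraries, and Gm47113, at 0 in nSVE libraries 1 and 2, complete the 18 rises and were named after their values were seen. The calls of Pde5a, Perp, Shld2 and Gjc1 ended without SVE library 1 (adjusted p up to 0.0938), Def6 lost its call in 2 omissions, Klhl4 in 3 and Suv39h2 in 4. Pde5a, Perp, Shld2, Def6, Suv39h2, Gjc1 and Klhl4 were all read in every wild-type nSVE library. Pde5a had 36, 19, 10 and 58 reads there and Perp 111, 44, 45 and 48.

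Libraries of the same group also dropped single genes. Genes at 0 in 1 library but at 50 or more in the other two of its group numbered 61, 15 and 365 for SVE libraries 1 to 3, against 65, 87 and 615 for nSVE libraries 1 to 3. In the wild-type groups of 4 libraries, where every other library of the group had to reach 50, the count ran between 4 and 36. That condition is stricter than in groups of 3, so the counts of the genotypes are not like for like. The part of such dropped genes in the calls above was not tested. Among the genes at 0 in a whole group, those with the highest mean in the other group included 8 that did not pass. Alms1-ps2 had 64.8, 144 and 176 in SVE libraries, against 0, 0 and 0 in nSVE libraries, and missed the threshold (adjusted p = 0.0922). Acyp1 and Ccdc163 rested on 2 SVE libraries each, with 0, 22.9 and 279 and 204, 127 and 0. In the other direction Npcd had 0, 0 and 0 in SVE libraries, against 0, 0 and 1168 in nSVE libraries, a single library. Ifit1, an interferon-induced gene, Ctsk, a cathepsin, Aqp1, a water channel, and Itprip were at 0 in all SVE libraries and read in 2 nSVE libraries each, up to 241 normalized read counts (adjusted p from 0.251 to 0.303 for Itprip, Ctsk, Ifit1 and Aqp1).

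Nuclear genes of the respiratory chain were lower as a group. Of 99 tested, 82 had a negative log2 fold change, with a median of -0.33, against 0.04 over all genes tested. At an unadjusted p under 0.05, 22 were lower and 0 higher, against 5.68% lower and 8.16% higher over all genes, and Ndufa4 and Ndufb11 passed adjustment. The summed value of the 99 genes was 212780.0, 204509 and 191872 in SVE libraries, against 217836, 231730.0 and 279863 in nSVE libraries (exact two-sided permutation p = 0.1). The groups did not overlap, and nSVE library 3 was highest. Split by symbol after the values were seen, 35 of 43 complex I subunits, Ndufa4 counted among them by its symbol, were lower with a median of -0.37. So were 15 of 17 cytochrome c oxidase genes (median -0.40), 16 of 19 ATP synthase genes (-0.33), 7 of 8 complex III genes (-0.23) and 3 of 4 complex II genes (-0.21). Atp5e, the epsilon subunit of ATP synthase, had 4974, 3669 and 2974 normalized read counts in SVE libraries, against 5129.98, 6311 and 10460.5 in nSVE libraries (-0.88, adjusted p = 0.15). Cox7b, a cytochrome c oxidase subunit, had 988, 1179.6 and 1163 in SVE libraries, against 1424, 1938 and 1765 in nSVE libraries (-0.61, adjusted p = 0.164). Neither of them passed, though their groups did not overlap. The 13 protein-coding genes of the mitochondrial genome showed no such shift, with 8 higher and 5 lower, a median of 0.17 and 0 calls (median -0.13 after correction for GC content and length and -0.14 without the sparsest library of each group). The mitochondrial share of reads was 3.90%, 3.37% and 3.71% under SVE, against 3.60%, 3.85% and 3.09% under nSVE.

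Genes of the cytosolic ribosome were lower as a group too. Of 86 ribosomal protein genes tested, 77 were lower, 32 of them at an unadjusted p under 0.05, against 5.68% of all genes tested. The median was -0.36, but none passed adjustment over all genes. Their summed value was 283666, 286133 and 249452 in SVE libraries, against 322045, 327884 and 438559 in nSVE libraries, again without overlap (exact permutation p = 0.1). The small subunit had 33 of 36 genes lower (median -0.44, 18 of them at an unadjusted p under 0.05) and the large subunit 44 of 50 (-0.25, 14 of them). Rpl11 had 1634, 1403 and 1547 normalized read counts in SVE libraries, against 1946, 2781 and 2941 in nSVE libraries (-0.72 ± 0.151, adjusted p = 0.0871). Rps15a had 4895, 4372 and 4576 in SVE libraries, against 5909, 6214 and 6792 in nSVE libraries (-0.45 ± 0.0991, adjusted p = 0.104). In both genes the 3 SVE libraries lay below the 3 nSVE libraries. Rps24 had a log2 fold change of -0.72 (adjusted p = 0.121). Ribosomal genes have many processed pseudogene copies with which they can share reads. By library, the median member deviated from its own mean over the 6 libraries by -0.11, -0.12 and -0.37 (log2) in SVE libraries and by 0.03, 0.14 and 0.45 in nSVE libraries. Without nSVE library 3 the ribosomal median was -0.21 and the respiratory chain median -0.22, and without the sparsest library of each group they were -0.19 and -0.14. The rRNA-related share given above also separated the groups, and with it as a covariate the medians were -0.39 and -0.25.

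Proteasome subunits leaned the same way, 27 of 37 lower with a median of -0.29 and 8 lower and 1 higher at an unadjusted p under 0.05. Over all genes tested 5.68% were lower and 8.16% higher at that p. Their sum was 55245, 53084 and 53879.9 in SVE libraries, against 58078, 59366 and 68997 in nSVE libraries (exact permutation p = 0.1, no overlap). Psmd8, of the regulatory lid, had 2027, 2511 and 2023 in SVE libraries, against 2992, 2899 and 4015 in nSVE libraries (-0.59, adjusted p = 0.187). The core subunits Psmb1, Psmb5 and Psma6 had log2 fold changes of -0.54, -0.68 and -0.54 (adjusted p from 0.194 to 0.227). Among 20 antioxidant enzymes 16 were lower (median -0.25), 5 of them at an unadjusted p under 0.05, against 5.68% of all genes tested. These included Gclc, of glutathione synthesis (-0.59), the superoxide dismutase Sod1 (-0.53) and the mitochondrial peroxiredoxin Prdx3 (-0.54). None passed. Of 20 glycolysis and lactate genes 15 were lower with a median of -0.18, which was 0.03 without the sparsest library of each group. Gapdh, Eno1 and Ldhb had -0.59, -0.43 and -0.42, each with nSVE library 3 far above the other libraries. The lactate transporter gene Slc16a3 went the other way, with 40.3, 39.1 and 45.8 in SVE libraries, against 0, 0 and 0 in nSVE libraries, and missed the threshold (adjusted p = 0.106). Translation factors split, with the cap-binding protein gene Eif4e at 1594, 1525 and 1750.3 in SVE libraries, against 2384, 3073 and 2174 in nSVE libraries (-0.63, adjusted p = 0.122). Eif4a1, a helicase of the same complex, had a log2 fold change of -0.50 and its scaffold Eif4g3 one of 0.40 (adjusted p = 0.215 and 0.215).

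**Figure D3:**
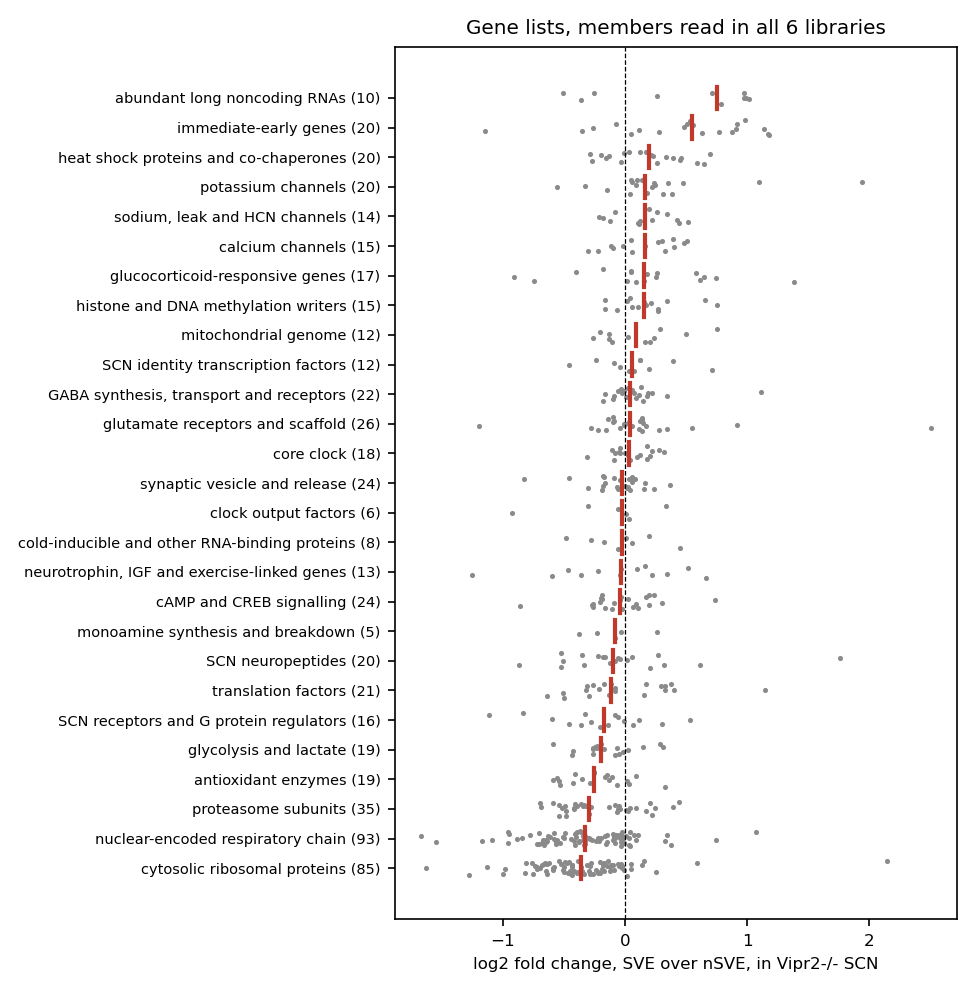
Log2 fold change of SVE over nSVE in Vipr2-/- SCN (horizontal axis) for the members of 27 gene lists that were read in all 6 libraries (number in brackets), 1 grey point per gene, with the list median as a red bar and the median of all genes read in all 6 libraries as a dashed line. Long noncoding RNAs and immediate-early genes lie at the top, ribosomal and respiratory chain genes at the bottom.

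Long noncoding RNAs had a list median of 0.75 over 10 genes, with 5 higher and 0 lower at an unadjusted p under 0.05 and no call. Over all genes tested 8.16% were higher and 5.68% lower at that p. Miat, a nuclear RNA of neurons, had 3486, 3931 and 4404 normalized read counts in SVE libraries, against 2439, 1794 and 1802 in nSVE libraries (0.98 ± 0.22, adjusted p = 0.105). Meg3, expressed from the maternal copy of an imprinted cluster, had 56164, 64117 and 60604 in SVE libraries, against 41259, 29059 and 35195 in nSVE libraries (0.79 ± 0.198, adjusted p = 0.155). Snhg11 had 27167, 28344 and 30431 in SVE libraries, against 17824, 10438 and 15318 in nSVE libraries (1.01 ± 0.266, adjusted p = 0.164). In each of these the SVE libraries lay above all nSVE libraries, without passing. Mirg and Snhg14 had 0.97 and 0.71, whereas Malat1 had -0.26 and Neat1 -0.36. The list median was 0.45 without nSVE library 3 and 0.40 without the sparsest library of each group.

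Other genes read in all 6 libraries came close to the threshold. They were picked by the smallest p among genes whose groups did not overlap, so that the lack of overlap is a condition of the choice. It was met by 11.5% of the genes read in all 6 libraries. Akap8l, a nuclear protein related to the A-kinase anchors, had 3194, 4704 and 4024 in SVE libraries, against 1715, 1217 and 1893 in nSVE libraries (1.31 ± 0.246, adjusted p = 0.0532). Fam193b had 2444, 2902 and 2581 in SVE libraries, against 1308, 1508 and 1214 in nSVE libraries (0.98, adjusted p = 0.0533). With lower values, Sfxn5, a mitochondrial carrier of the sideroflexin family, had 5438, 5708 and 5851 in SVE libraries, against 7880.00, 8309 and 9698 in nSVE libraries (-0.60 ± 0.113, adjusted p = 0.0532). Several further genes of this kind also serve the mitochondrion, namely the mitochondrial ribosomal protein Mrpl41 (-0.88, adjusted p = 0.0748) and the sulfurtransferase Tst (-0.88, 0.0868). The cytochrome c oxidase assembly factor Cox16 had 363, 302 and 287 in SVE libraries, against 589, 647 and 817 in nSVE libraries (adjusted p = 0.0871). Prpf6, a splicing factor, had -0.62 (adjusted p = 0.0922), the iron-sulfur protein Bola2 -1.41 (0.0832), selenoprotein W, Selenow, -0.63 (0.104) and Pgls, of the pentose phosphate pathway, -0.87 (0.105). Acyp2, an acylphosphatase, had 87, 357 and 164 in SVE libraries, against 401, 619 and 1170.3 in nSVE libraries, the widest spread among them. Tex261 and the pseudogene Trmt112-ps2, whose reads are uncertain, had -0.60 and -0.84.

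The molecular clock itself showed no gene past the threshold. Of 19 core clock genes tested, 0 were called and 0 had an unadjusted p under 0.05, with a median log2 fold change of 0.04. DESeq2 and edgeR called none of the clock genes named here either. Per1 had 4368, 5166 and 2701 normalized read counts in SVE libraries, against 4044, 2911 and 3539.6 in nSVE libraries. Per2 had 2317, 2251 and 1590.1 in SVE libraries, against 1889, 1729.8 and 2802 in nSVE libraries. The groups overlapped in both Period genes, whose log2 fold changes were 0.18 ± 0.319 and -0.05 ± 0.27. Among the repressors Cry1 and Cry2 the changes were 0.10 ± 0.177 and 0.00 ± 0.101, and for the activators Arntl, which encodes BMAL1, and Clock they were 0.12 ± 0.218 and 0.28 ± 0.178. Nr1d1, the repressor REV-ERB alpha, had 6246, 11808 and 7725 in SVE libraries, against 6874, 6306 and 8263 in nSVE libraries (0.22, adjusted p = 0.604), the high SVE library being the one with fewest genes at 0. Per3 and Nr1d2 had 0.32 and 0.20. A clock-driven transcription factor, Dbp, had 4415, 5968 and 4178 in SVE libraries, against 8180.4, 5109.7 and 4952 in nSVE libraries (-0.30, adjusted p = 0.607). Its relatives Tef and Hlf were at -0.05 and 0.03, and Nfil3, which competes with them for DNA, was at -0.92 (adjusted p = 0.271).

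Peptides and their regulators gave lower p-values than the clock genes, and none passed. Vip, whose receptor these mice lack, had 2428, 3977 and 3133 normalized read counts in SVE libraries, against 3772, 5027 and 4592 in nSVE libraries. SVE library 2 reached into the nSVE range (-0.51 ± 0.181, adjusted p = 0.251). Avp, the vasopressin gene of SCN output neurons, had 4559, 5431 and 3203 in SVE libraries, against 8409.7, 3809 and 7357 in nSVE libraries (-0.52 ± 0.246, adjusted p = 0.36), with nSVE library 2 inside the SVE range. Prok2, a secreted output signal driven by the clock, had 82.2, 26.3 and 85.8 in SVE libraries, against 10.2, 0 and 0 in nSVE libraries. In reads this was 104, 31 and 60 under SVE against 7, 0 and 0 under nSVE, a log2 fold change of 4.70 ± 1.09 that did not pass (adjusted p = 0.111, and 0.00775 by DESeq2). The Prok2 window around its start is printed because it carries the E-box, 1 copy that begins 135 bases before the start.
Prok2, chr6:99726343-99726642, minus strand: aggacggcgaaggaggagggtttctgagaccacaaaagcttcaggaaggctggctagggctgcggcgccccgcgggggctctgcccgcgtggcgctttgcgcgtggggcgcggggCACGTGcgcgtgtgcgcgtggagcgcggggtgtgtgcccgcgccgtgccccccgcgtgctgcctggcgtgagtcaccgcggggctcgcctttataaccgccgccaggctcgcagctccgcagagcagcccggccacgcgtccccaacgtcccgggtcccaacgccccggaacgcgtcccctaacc
Nppc, the C-type natriuretic peptide gene, had 323, 383 and 347 in SVE libraries, against 159.6, 141 and 48 in nSVE libraries (1.76 ± 0.479, adjusted p = 0.174). Its SVE values were close together and more than 2 times the highest nSVE value. Chgb, a protein of secretory granules, was at -0.35, while Grp (0.02), Nms (0.32), Sst (-0.06), Cck (-0.16), Penk (-0.04) and Vgf (-0.22) overlapped between groups.

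Among receptors and G protein regulators no gene passed. Rgs16, which times cAMP signalling in the dorsal SCN, had 9031, 8770.4 and 8750.00 normalized read counts in SVE libraries, against 6105, 6099 and 6166 in nSVE libraries. Every SVE library lay above every nSVE library, 1.45-fold on the fitted scale. The model, which takes its spread from all 14 libraries, gave 0.53 ± 0.213 and an adjusted p of 0.304. In the fit of the 6 Vipr2-/- libraries alone it was 0.39. Rgs4 had 327, 307 and 563 in SVE libraries, against 544, 771 and 764 in nSVE libraries (-0.83, adjusted p = 0.215), SVE library 3 overlapping the nSVE range. Gpr176, an orphan receptor of the SCN, had -0.36 (adjusted p = 0.276). Over 21 receptors and G protein regulators the median was -0.18, with 15 lower, and 0.03 without the sparsest library of each group.

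**Figure D4:**
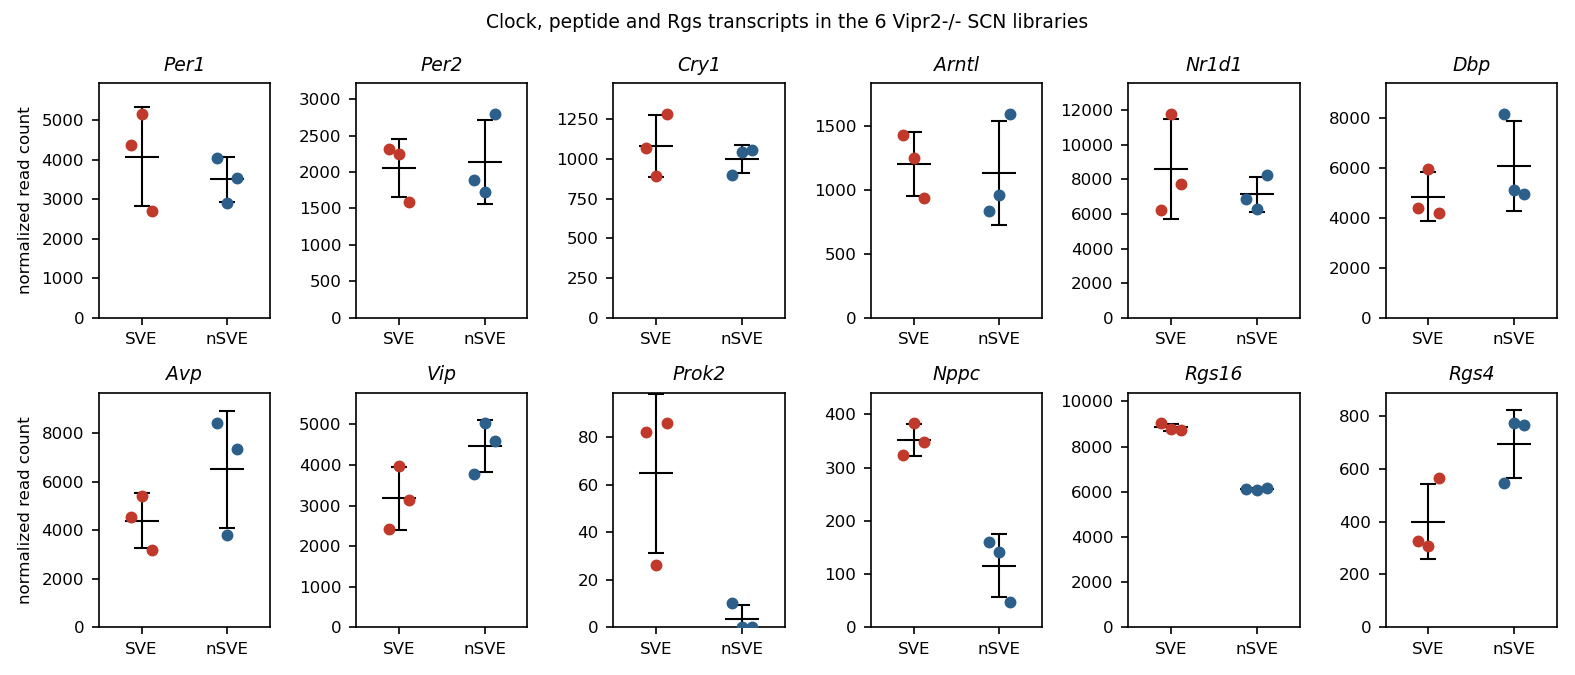
Normalized read count (vertical axes, from 0) of 6 clock genes (upper row) and of 4 peptide and 2 Rgs genes (lower row) in the 6 Vipr2-/- libraries; points are libraries, SVE left and nSVE right, with mean and SD of 3. The points overlap between groups for each of the 6 clock genes and do not overlap for Prok2, Nppc and Rgs16.

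Genes that neurons switch on with firing tended upward without passing. Of 22 immediate-early genes 18 had a positive log2 fold change, against 53.6% of all genes tested, with a median of 0.60. None was called, and 1 gene reached an unadjusted p under 0.05, against 13.8% of all genes tested. That gene, the neuronal transcription factor Npas4, had 662, 758 and 329 normalized read counts in SVE libraries, against 347, 260.5 and 296 in nSVE libraries (0.87 ± 0.396, adjusted p = 0.348). Fos had 1143, 1735 and 855 in SVE libraries, against 419, 1219.6 and 1145 in nSVE libraries (0.51 ± 0.728, adjusted p = 0.772). Egr1 and Arc were at 0.63 ± 0.881 and -0.35 ± 0.743. By library, the median member deviated from its own mean by 0.15, 0.84 and -0.25 in SVE libraries and by -0.24, 0.07 and -0.16 in nSVE libraries, so that SVE library 2 was highest and SVE library 3 lowest. Without SVE library 2 the list median was 0.29.

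Genes of membrane excitability lay slightly higher. Of 15 calcium channel genes 10 were higher, 5 of them at an unadjusted p under 0.05 and 0 lower, against 8.16% higher over all genes, with a median of 0.16. Cacna1d, an L-type channel, had 3410.5, 3199.7 and 3802 normalized read counts in SVE libraries, against 2828, 2239.99 and 2261 in nSVE libraries, without overlap (0.51 ± 0.139, adjusted p = 0.174). Cacna1e, Cacna1a and Cacna1g had 0.39, 0.41 and 0.48. Unc79, part of the sodium leak channel complex, had 2363, 2121 and 2308 in SVE libraries, against 1836, 1627 and 1315 in nSVE libraries (0.52, adjusted p = 0.155). The leak channel gene Nalcn went the other way, with 4207, 3987 and 3915 in SVE libraries, against 4294, 5165 and 4308 in nSVE libraries. Its groups did not overlap (-0.18, adjusted p = 0.577). Of 14 sodium, leak and HCN channel genes 10 were higher and 4 lower. Of 20 potassium channel genes 17 were higher, against 53.6% of all genes tested, among them Kcnc2 (0.32). Their median was 0.17, and 0.086 without the sparsest library of each group. For the sodium, leak and HCN channels the median was 0.16, and 0.034 without those libraries. SCN transcription factors, which set the identity of its neurons, had a median of 0.08 over 13 genes, and monoamine genes one of -0.15 over 8. GABA genes had a median of 0.06, with the receptor subunits Gabrb2 and Gabrb1 at 1.12 and 0.35, and glutamate receptor genes one of 0.04, with Grin2a at 2.51 and Grm2 at -1.20. Grin2a had 245, 183 and 160 in SVE libraries, against 78.4, 113 and 3.37 in nSVE libraries, the last of these being 4 reads. The 24 synaptic vesicle genes had a median of -0.02. None of these genes was called.

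In the remaining lists no gene passed. Of 25 cAMP and CREB genes, Crtc2, a coactivator of CREB, had 0.74 (adjusted p = 0.215). Glucocorticoid-responsive genes split, with Fkbp5 at 327, 827 and 695 in SVE libraries, against 1039, 1048 and 1135 in nSVE libraries (-0.90, adjusted p = 0.218), Mt1 at -0.75 and Nfkbia at 0.65. Heat shock genes had a median of 0.20, which was -0.04 without SVE library 3, with Hspa2 at 1024, 733 and 961 in SVE libraries, against 538, 549 and 633 in nSVE libraries (0.65, adjusted p = 0.188) and Dnajb1 at 0.46. Among RNA-binding proteins Hnrnpdl was at -0.48 and Srsf5 at 0.45. Genes that act on chromatin and DNA methylation included Kmt2c (0.66), Tet2 (0.75) and Kmt2a (0.28). Of 17 such genes 3 were higher at an unadjusted p under 0.05, against 8.16% of all genes tested. Of 19 neurotrophin, insulin-like growth factor and exercise-linked genes, Igfbp3 had -1.25 (adjusted p = 0.273), and Bdnf had 90.1, 42.5 and 0 in SVE libraries, against 42.1, 33.7 and 0 in nSVE libraries, with a library at 0 in each group.

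Summed markers overlapped between groups for all cell types listed but 1. These were neurons, SCN neurons, astrocytes, oligodendrocytes and their precursors, microglia, endothelium, pericytes, ependyma, meninges and choroid plexus, and the neighbouring hypothalamus. Mobp, a myelin gene, had 0.12 ± 0.149 and the astrocyte gene Gfap -0.11 ± 0.14. Besides Kdr, the other 7 endothelial markers included none with an unadjusted p under 0.05, and the list summed to 4134, 3593 and 3804 in SVE libraries, against 3226, 3709 and 4119 in nSVE libraries. By library the median endothelial marker, with Kdr in the list, deviated from its own mean by 0.27, 0.06 and 0.13 (log2) in SVE libraries. In nSVE libraries the deviations were -0.31, -0.08 and 0.00, so that these medians did not overlap. The defining markers Cldn5 and Cdh5 were read in all 6 libraries. Blood was the exception, with a sum over 5 genes of 2608, 2816 and 1413 in SVE libraries, against 5277, 3209.8 and 4856 in nSVE libraries (exact permutation p = 0.1, no overlap). The beta globin gene Hbb-bs had 686, 502 and 545 in SVE libraries, against 1406, 867 and 1133 in nSVE libraries (-0.96 ± 0.285, adjusted p = 0.202). Hbb-bt, Hba-a1 and Hba-a2 had -0.99, -1.13 and -1.02, and none of the 4 passed. The fifth, Alas2, of heme synthesis, had 0.30 and libraries at 0 in both groups. The part of blood RNA in the other results was not tested. Of genes of the surrounding hypothalamus, the oxytocin gene Oxt had 5672, 3324 and 2675 in SVE libraries, against 5906, 7229 and 5748 in nSVE libraries, without overlap (adjusted p = 0.349). Th, of dopamine synthesis, had 705, 125 and 0 in SVE libraries, against 624, 363 and 449 in nSVE libraries, with SVE library 3 at 0. Of the other 3 genes of this list, Gal had 0.20, Trh 0.05 and Slc17a6 -0.03, and the list median was -0.03.

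Direction followed transcript length and base composition. Genes read in all 6 libraries were cut into 5 bins of nearly equal size by the median length of their annotated transcripts. In the shortest bin (median 600.0 bases) 40.1% and in the longest (median 3690.0 bases) 60.5% were higher under SVE. By GC content, 62.4% of the lowest bin (median 43.2% GC) and 41.7% of the highest (58.3%) were higher. Ribosomal protein genes had a median length of 634.5 bases and respiratory chain genes of 595.5 bases. Channel genes were long, with medians of 3636.5 bases for calcium, 2999 for potassium and 3472 for sodium, leak and HCN channels. The part of length alone in their rises was not tested. As an alternative added after seeing the data, each library was corrected for trends in length and GC content together. After this correction 32 genes were called and the median was -0.28 for ribosomal protein genes and -0.20 for the respiratory chain. The channel medians were then 0.12 for calcium, 0.12 for potassium and 0.19 for sodium, leak and HCN channels. Before correction they were 0.16, 0.17 and 0.16. In wild-type mice the median log2 fold change of SVE over nSVE ran the other way by GC content, at -0.18 in the lowest bin and 0.23 in the highest.

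**Figure D5:**
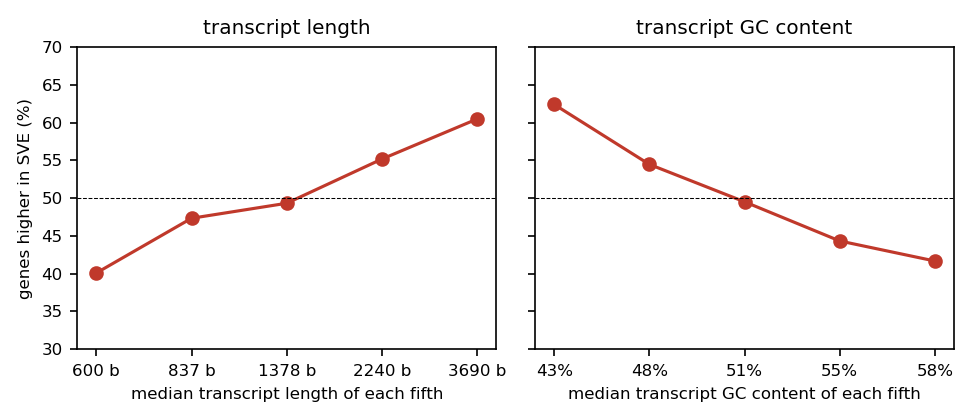
Share of genes higher under SVE in Vipr2-/- SCN (vertical axis, %), for 5 bins of the 13068 genes that were read in all 6 libraries and have a transcript annotation, ordered by median transcript length (left) and GC content (right); the dashed line marks 50%. The share climbs from 40.1% to 60.5% with length and drops from 62.4% to 41.7% with GC content.

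Whether the response to exercise was particular to Vipr2-/- mice was asked with the interaction of exercise and genotype, which 4 genes passed (0.022%), Kdr, Nr1d1, Tmem51 and Gm1848. An unadjusted p under 0.05 was reached by 10.3% of genes. For Ndufa4 the wild-type libraries had 2372, 2713, 2251 and 2065 under SVE, against 3889, 4172, 4099 and 3615 under nSVE, so that Ndufa4 fell in wild type too (-0.75, adjusted p = 0.0105), and the difference between the responses was -0.20 ± 0.185 (adjusted p = 0.701). Snrnp70 likewise rose in wild type, with 3244, 3032, 2882 and 3445 under SVE, against 1663, 1618, 2675 and 2236 under nSVE (0.65, adjusted p = 0.0335, difference 0.24 ± 0.215). Banp had wild-type means of 1828 ± 146 under SVE and 1489.5 ± 109 under nSVE (SD, n = 4 each), a change of 0.29 that did not pass, and its difference of 0.67 ± 0.187 did not pass either (adjusted p = 0.357). For Ppp4r1 and Ndufb11 the differences were 1.27 ± 0.337 and -0.45 ± 0.151 (adjusted p = 0.318 and 0.394), also short of the threshold. In wild type, where 1.28% of genes were called, the list medians were -0.39 for ribosomal proteins, -0.20 for the respiratory chain, -0.26 for the proteasome and 0.61 for long noncoding RNAs. With the circadian times that the series text gives, circadian time and exercise cannot be told apart in the wild-type comparison.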

How the data were processed

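Per the labels' protocols, the tissue came from 20 µm sections by laser microdissection after a cresyl violet stain, and its total RNA was sequenced. Per the submitters' processing notes, the authors used Trimmomatic, FastQC, HISAT2, StringTie and DESeq2, with no version given in the sources used here. The series text assigns trimming to Trimmomatic, alignment to HISAT2, counting to StringTie and differential expression to DESeq2. In the deposited table each value is a normalized signal, whose steps show a gene's read count divided by 1 factor per library. Each value is a whole multiple of the value of 1 read to within 0.001 reads (100% of values), which gave the read totals. The series text names GRCm38 and the processing notes GRCm39. Deposited starts count from 0 and, moved by 1, match the GENCODE M21 annotation of GRCm38 for all 54349 of 55401 identifiers it holds.

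The main test was limma 3.58.1 (R 4.3.3) with a mean-variance trend on log2(value + 1), with 1 mean per group over 14 libraries, since the values are not counts. Calls used Benjamini-Hochberg adjustment over the 18175 genes tested. Alternatives were TMM scaling, pseudocounts of 0.5 and 10, testing all genes, a filter of 50, array weights, the replicate number as a block and the share of genes at 0 as covariate. Others were edgeR 4.0.16 and DESeq2 1.42.0 on recovered reads, the 6 libraries alone and each library left out. Chosen after the data were seen were the correction for GC content and length (values for 18152 genes), the rRNA share as covariate, genes read in all 6 libraries only and the omission of the sparsest library of each group. Tests were run on simulated data first. Floors of 3 reads cover counting error only.

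Named genes are Vipr2, called genes with an official symbol, the closest misses read in all 6 libraries, the largest means beside a group at 0, up to 4 members per list with the smallest p, and a set of clock, peptide and activity genes. Cox7b, Malat1, Neat1, Snhg14, Cldn5, Cdh5, Pecam1, Flt1, Lhx1, Prokr2, Rorb, Alas2, Slc17a6, Nalcn and Tmem51 were named after their values were seen. The closest misses were taken only from genes whose groups did not overlap. The members, lists and named genes were chosen with earlier results of these data known. Promoters came from RefSeq, matched for 107 of 133 genes.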

Additional observations from a re-analysis of the deposited data

Results flagged for a closer look

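The response to SVE differed between genotypes by a test of the difference itself (limma interaction, adjusted p under 0.05) for 4 genes. Kdr changed by 7.53 (log2) in Vipr2-/- mice and by 0.78 in wild type, a difference of 6.749 ± 0.924 (SE, adjusted p = 0.0117). The values of Kdr and Gm1848 are fitted on log2(value + 1) against libraries at 0, so they depend on the added 1 and are no bounds. For Kdr, wild-type libraries had 157, 114, 228 and 114 normalized read counts under SVE, against 83.5, 92.8, 55.2 and 121 under nSVE, so that the Vipr2-/- nSVE group, at 0, is the one that stands apart. The pseudogene Gm1848 gave a difference of 7.395 (adjusted p = 0.00512) of the same kind, with wild-type means of 151 ± 53.8 under SVE and 143 ± 21.9 under nSVE (SD, n = 4 each). Nr1d1 changed by 0.22 in Vipr2-/- and by 1.95 in wild-type mice, a difference of -1.729 ± 0.244 (adjusted p = 0.0128). Wild-type libraries had 17562, 15004, 16319 and 17790.5 under SVE, against 4523, 4948, 3622 and 4206 under nSVE. Tmem51 changed by -0.16 and 1.44, a difference of -1.606 ± 0.22 (adjusted p = 0.0117), with Vipr2-/- values of 827, 1143 and 1054 under SVE, against 1390.2, 962 and 1044 under nSVE. By the series text the wild-type SVE mice were culled at schedule time 14 and circadian time 24, and the Vipr2-/- SVE mice at 14 on both scales. With those times, genotype and circadian time cannot be told apart in these differences. Nor can genotype and the days taken to entrain, 35 to 40 in wild-type and 6 to 9 in Vipr2-/- mice.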

How the results depend on the processing

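The number of calls depended on the method and on single libraries. Against 21 calls, DESeq2 gave 394, the correction for GC content and length 32 and omission of the sparsest library of each group 39. Fewer genes were called by edgeR's quasi-likelihood test (6), with no filter (6), a filter of 50 (6), a pseudocount of 10 (5) and array weights (4). The rRNA share as covariate gave 3, adjustment for the share of genes at 0 gave 8 and testing only genes read in all 6 libraries 2. In the 6 Vipr2-/- libraries alone 0 were called, with 866 of the 18175 genes tested at an unadjusted p under 0.05. Leaving out 1 library gave 6 to 177. TMM scaling and a pseudocount of 0.5 gave counts within 1.5 times the 21. Interaction calls, 4 in all, numbered 175 by DESeq2, 2 among genes read in all 6 libraries, 7 after adjustment for the share of genes at 0, 13 without the sparsest library of each group and 3 to 36 with 1 library left out. Groups without overlap, 1815 genes, numbered 5826 without the sparsest library of each group and 3187 to 3895 with 1 library left out, where fewer libraries make separation more frequent. Replicate numbers were not taken to pair the samples, since same-numbered libraries of the 3 pairs deviated together at r from 0.0177 to 0.0901, under the 0.1 required. As a hint the other way, for 4 of 6 libraries the best match was the one of the same number. With the replicate number as a block 4 genes were called, and 0 for the interaction.

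Of 2755 values of named genes under alternatives, 2433 kept direction and side of the threshold, 196 lost and 73 gained a call and 53 changed sign. The cause of the sign changes was not tested. Array weights gave Per2 0.18, Cry2 -0.029, Sst 0.15 and Penk 0.084. Without the sparsest library of each group Per2 was 0.34, Cry2 -0.044, Clock -0.026, Grp -0.012, Sst 0.31, Penk 0.14 and Vgf 0.011. Adjustment for the share of genes at 0 gave Cry2 -0.0056, Tef 0.0079, Hlf -0.022, Penk 0.071 and Bdnf -1.58. The rRNA share as covariate gave Hlf -0.034, Grp -0.16, Arc 0.24 and Gfap 0.026. The GC and length correction gave Tef 0.073, Hlf -0.018, Sst 0.051 and Penk 0.024, and DESeq2 gave Cry2 -0.0036. With 1 library left out the ranges were, as log2 fold changes, Vipr2 -0.40 to 0.30, Per1 -0.013 to 0.45, Per2 -0.18 to 0.16, Cry1 -0.035 to 0.23, Cry2 -0.056 to 0.080, Arntl -0.064 to 0.40, Nr1d1 -0.032 to 0.43, Tef -0.19 to 0.062, Hlf -0.047 to 0.10, Grp -0.15 to 0.16, Sst -0.37 to 0.21, Cck -0.29 to 0.012, Penk -0.19 to 0.13, Arc -0.78 to 0.16, Bdnf -1.29 to 2.46 and Gfap -0.21 to 0.030. Of 702 list medians under alternatives, 651 moved by less than the spread between replicates. For genes at 0 in a whole group depth limits the fold, and only those written as at least a given fold rest on the floor of 3 reads.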

Other observations

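By annotated class, processed pseudogenes read in all 6 libraries leaned lower under SVE and long intergenic RNAs higher. Of 1101 processed pseudogenes 43.8% were higher, with a median log2 fold change of -0.14 and a median transcript length of 636 bases. Of 113 long intergenic RNAs 57.5% were higher, with a median of 0.24, and 17 were higher and 4 lower at an unadjusted p under 0.05. Among all genes read in all 6 libraries 7.07% were higher and 6.6% lower at that p. The 10990 protein-coding genes had 50.9% higher and a median of 0.01. No explanation of these shares was tested.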
